A study of Mus musculus with 2 samples.

Results

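The members described here are 35 listed genes of glucose breakdown out of 31053 genes in the expression matrix, and all 35 were found. They comprise 20 genes of glucose transport, glycolysis and lactate formation, 4 of the pentose phosphate pathway and 11 of pyruvate entry and the TCA cycle. Glucose is taken up by transporters of the Slc2a family, trapped as a phosphate by hexokinase, split and oxidised to pyruvate by the enzymes of glycolysis, and either turned into lactate by lactate dehydrogenase or passed to mitochondria. There pyruvate dehydrogenase makes acetyl-CoA from it and the tricarboxylic acid (TCA) cycle oxidises that acetyl-CoA. The pentose phosphate pathway branches off at glucose 6-phosphate and supplies NADPH and ribose. Many of these steps have more than 1 enzyme gene (isoenzymes), and tissues differ in which gene they use. In low oxygen, the transcription factor HIF-1 is known to raise transport and glycolysis genes, and tumours are known for high glycolysis.

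The study profiled mouse tumours in a project on inhibitors of ACSS2, an enzyme that makes acetyl-CoA from acetate, in triple negative breast cancer. Live cells of 3 vehicle samples and 3 samples given the ACSS2 inhibitor (ACSS2i) were pooled, 4000 to 6000 cells per sample, and run on a single lane of a 10x Chromium 3′ assay, with 1 expression and 1 protein library. The strain is given as "NGS mouse", and the labels give no age. The deposited design text names Bmal1 status, which no sample label gives. The 6 samples carry an antibody tag each, named U2, U3, U4 or D0, D1, D4 in the matrix, but no label says which tag belonged to which arm. Vehicle and ACSS2i therefore cannot be compared here. The tags are given singly or as a range, as samples of unknown arm. Since the tags belong to no known arm, they were not treated as replicates of a group: no test was made over them, and no p-value is given for any difference. Where groups are compared within tags, the values by tag or the number of tags in each direction are given.

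The matrix held 9747 cell barcodes and 187339115 gene UMIs (unique molecular identifiers, each standing for a captured transcript). After removal of 696 barcodes with fewer than 500 genes, 267 with 15% or more mitochondrial UMIs and 865 that carried more than 1 tag, 7919 remained. A barcode was called tumour with at least 3 UMIs of the keratin genes Krt8 and Krt18 and none of Ptprc (the leukocyte gene of CD45). It was called T with at least 2 UMIs of Cd3d, Cd3e and Cd3g, NK with at least 1 of Ncr1 and Klrb1c and none of Cd3, and macrophage with at least 3 of C1qa, C1qb and C1qc. These rules gave 5212 tumour, 730 T, 121 NK and 396 macrophage barcodes, and 51 barcodes that met more than 1 rule were left out. The median depth was 25137.5 UMIs in tumour, 1647.5 in T, 3359 in NK and 4326.5 in macrophage barcodes. Of the tumour barcodes 1850 carried no tag call.

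Levels below are CPM, a gene's UMIs per 1000000 gene UMIs, summed over all barcodes of a class. They count 3′ ends of transcripts, 1 end per transcript, so they are not divided by gene length. Intervals are exact 95% intervals and cover counting error only. A member was compared between groups where the mean of the 2 CPM values reached 20, and it is called higher or lower at a ratio of at least 1.5-fold.

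Promoter sequence is shown first for 6 members whose levels differed between tumour barcodes with and without hypoxia marker RNA, since HIF-1 is known to bind the short motif ACGTG or GCGTG. The stretches are 60 bases from RefSeq on GRCm38.p6, 5′ to 3′ on the gene's strand, and capitals mark the motif or its reverse complement (CACGT or CACGC). Slc2a1 encodes the glucose transporter GLUT1 and lies at chr4:119108711-119137983 (+). Its stretch is chr4:119108657-119108716, and its first shown motif starts 61 bases before the RefSeq start. Pgk1 encodes phosphoglycerate kinase (chrX:106187100-106203699, +), with the stretch chrX:106186923-106186982. Pfkp, the platelet form of phosphofructokinase (chr13:6579768-6648777, -), has the stretch chr13:6648807-6648866. Hk2, hexokinase 2 (chr6:82725025-82774454, -), has the stretch chr6:82774474-82774533. Those 4 genes were higher in the hypoxia-high barcodes. Eno3, the muscle-type enolase (chr11:70657202-70662513, +), with the stretch chr11:70657019-70657078, and Fh1, fumarate hydratase (chr1:175600374-175625635, -), with the stretch chr1:175625636-175625695, were lower there.
Slc2a1: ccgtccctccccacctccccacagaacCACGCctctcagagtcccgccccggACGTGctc
Pgk1: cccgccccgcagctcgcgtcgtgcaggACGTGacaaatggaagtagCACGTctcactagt
Pfkp: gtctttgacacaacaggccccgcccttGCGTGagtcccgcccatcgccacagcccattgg
Hk2: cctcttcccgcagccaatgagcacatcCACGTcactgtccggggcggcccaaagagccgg
Eno3: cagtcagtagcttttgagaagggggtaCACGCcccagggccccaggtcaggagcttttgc
Fh1: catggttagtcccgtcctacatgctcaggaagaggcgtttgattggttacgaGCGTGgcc

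The motif was present in stretches of both kinds. In the 250 bases before the RefSeq starts, 33 of the 35 members had sequence, and 29 of the 33 (87.9%) held ACGTG or GCGTG on either strand, against 41.5% of 27025 genes. Among members higher in hypoxia-high barcodes 9 of 10 held it, and among the other compared members 16 of 18. ACGTG alone was in 5 of those 10 and 5 of those 18, and in 18.5% of all genes. A match is a description of letters in this window, not a bound site. No match was found for Gpi1, glucose 6-phosphate isomerase, which was also higher in the hypoxia-high barcodes.

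The class names were checked against markers that the rules did not use. Tumour barcodes had almost no RNA of the epithelial genes Epcam (1 UMI), Cdh1 (6 UMIs), Krt7 (3 UMIs), Krt19 (10 UMIs), Cldn4 or Cldn7 (0 UMIs each). They had Sox9 at 760 CPM, Hmga2 at 548 CPM and Ereg at 472 CPM, and the matrix gene Dcn at 2580 CPM. "Tumour" here therefore means positive for Krt8 and Krt18 and not epithelial by the other genes. The T marker list summed to 2786 CPM, the NK list to 5017 CPM and the macrophage list to 20277 CPM in the respective barcodes with fewer than 3 keratin UMIs. Levels of each list in the other classes are not given here, so these sums alone do not tell the classes apart. Fibroblast markers summed to 1147 CPM in the same T barcodes, of which 14 of 701 held 3 or more of these UMIs. Within the immune classes, 29 T, 8 NK and 39 macrophage barcodes held 3 or more Krt8 and Krt18 UMIs. Although few, they held 33.1%, 32.6% and 40.3% of the UMIs of their class. Their glycolysis genes summed to 10125, 10081 and 10258 CPM, near the 9913 CPM of tumour barcodes. Sox9 was at 268 CPM in T, 208 in NK and 320 in macrophage barcodes by the rules, and at 40.4, 16.4 and 33.8 CPM without the keratin-high barcodes. Immune results are therefore given both by the rules and for the 701 T, 113 NK and 357 macrophage keratin-low barcodes, a choice made after seeing the data. In the keratin-low barcodes 5 tumour genes of a free-RNA list (Krt7, Krt19, Sox9, Hmga2 and Ereg) stood at 6.25%, 1.97% and 4.87% of their tumour level in T, NK and macrophage barcodes. With Areg, which was left out after seeing the data, the full list stood at 24.3%, 2.14% and 8.58%. Krt7 and Krt19 add little to either value, given their few tumour UMIs.

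Tumour barcodes carried their member RNA mostly in glycolysis. The 35 members took 1.12% of all tumour gene UMIs: the glycolysis members summed to 9913 CPM, those of the TCA cycle to 833 and those of the pentose phosphate pathway to 472. The later steps of glycolysis supplied the most abundant members. Pkm, pyruvate kinase, stood at 1525 CPM and Gapdh, the dehydrogenase of the middle step, at 1497. Phosphoglycerate mutase Pgam1 was at 1388, Pgk1 at 1352 and lactate dehydrogenase A (Ldha) at 1184. Triose phosphate isomerase Tpi1 followed at 910, aldolase A (Aldoa) at 794 and Gpi1 at 406. The enolases Eno3 and Eno1 stood lower, at 161 and 151 CPM. The Eno1 and Gapdh levels are uncertain, as described below. Genes of transport and of the phosphorylating steps were lower, with Slc2a1 at 119 CPM, liver-type phosphofructokinase Pfkl at 118, Hk2 at 96.5, Hk1 at 93.0 and Pfkp at 90.9. In the pentose phosphate pathway the transfer enzymes transketolase (Tkt, 233 CPM) and transaldolase (Taldo1, 131) exceeded the oxidative enzymes Pgd (80.7) and G6pdx (27.3). Among mitochondrial members, malate dehydrogenase 2 (Mdh2) was at 214 CPM, isocitrate dehydrogenase 2 (Idh2) at 101, the pyruvate dehydrogenase subunit Pdha1 at 79.5, citrate synthase (Cs) at 55.3, oxoglutarate dehydrogenase (Ogdh) at 43.8 and Fh1 at 31.4.

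Some members were hardly present in tumour barcodes. Lactate dehydrogenase B (Ldhb) had 45 UMIs (0.322 CPM), the transporter Slc2a3 14 UMIs (0.1 CPM) and the pyruvate dehydrogenase kinase Pdk4 none, where a count of 0 allows up to 0.0215 CPM. Neuronal enolase Eno2 was at 2.59 CPM, aldolase C (Aldoc) at 7.2 and muscle phosphofructokinase Pfkm at 18.4. Pdk4 also had no UMI in any keratin-low immune class.

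**Figure D1:**
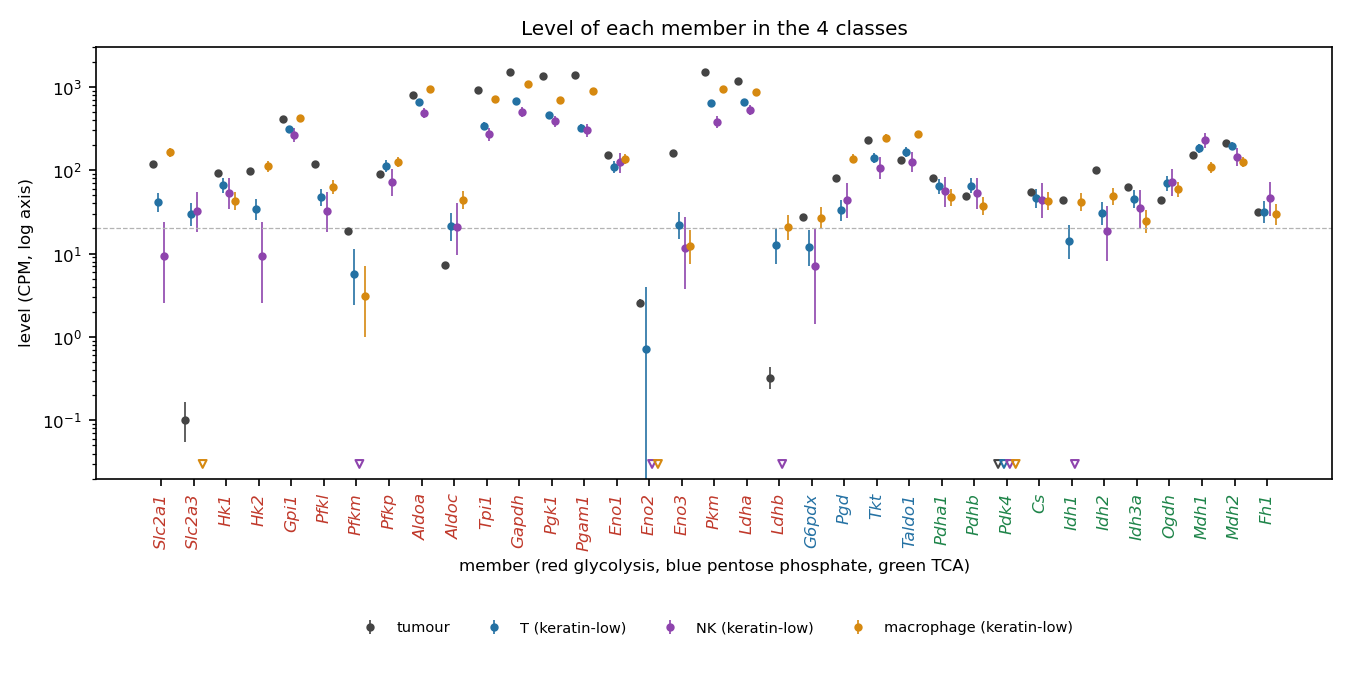
Level of the 35 members (x axis) in tumour, T, NK and macrophage barcodes, in CPM on a log axis. Points are the summed level of a class, bars its 95% counting interval, open triangles a level of 0, and the dashed line the level of 20 CPM; immune classes are keratin-low. Eno3 was at 161 CPM in tumour barcodes and at 11.7 to 22 CPM in the immune classes, while Slc2a3 was at 0.1 CPM in tumour and 29.8 and 32.7 CPM in T and NK barcodes.

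The 6 tags were close for most members. Pkm stood in tumour barcodes at 1404 CPM in tag U2, 1586 in U3, 1571 in U4, 1675 in D0, 1620 in D1 and 1519 in D4. Ldha stood at 1107, 1269, 1175, 1211, 1252 and 1141 CPM in the same order, and Aldoa at 754, 886, 748, 814, 787 and 795. In these 3 members the highest tag was 1.15 to 1.19 times the lowest. Slc2a1 was at 108, 113, 90.6, 134, 108 and 121 CPM, and Pfkl at 112, 135, 118, 144, 111 and 131, with D0 highest in both. Hk2 varied more, at 105, 81.7, 54.8, 112, 94.6 and 106 CPM, and the highest tag was 2.04 times the lowest. Eno3 was at 144 CPM in U2, 235 in U3, 200 in U4, 183 in D0, 183 in D1 and 128 in D4. Members of the other routes differed little: Pgd ran from 74.8 to 85.1 CPM, Pdha1 from 73.8 to 87.2 and Mdh2 from 202 to 237.

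Against tumour barcodes, T barcodes had less glycolysis RNA and nearly the same TCA RNA. By the class rule 13 of 29 compared members were lower (23.2% of all compared genes were) and 0 were higher (background 21.0%). In the keratin-low T barcodes 14 of 28 were lower (background 31.6%) and 1 was higher (background 28.5%). Of the 14 lower members 10 were glycolysis genes, of 15 compared. The summed glycolysis level was 4557 CPM, 0.46 times tumour (0.448–0.471), and it was lower in 6 of 6 tags. By tag it was 2791 CPM in U3 and 4833 to 5584 in the others. The 5 fibroblast markers of the marker list summed to 3077 CPM in the T barcodes of U3, 2031 in U4 and 74.4 to 244 in the other tags. Few barcodes held 3 or more of these UMIs, 8 of 210 in U3 and 1 of 57 in U4. The part of these markers in the result was not tested. The TCA sum was 745 CPM, 0.894 times tumour (0.84–0.95), and it was lower in 4 of 6 tags. The median log2 ratio of the 28 members was −0.615, against −0.0613 for all compared genes. The 13 lower members by the class rule became 3 when barcodes needed 1000 genes, and 3 when barcodes with more than 1 tag were kept. T barcodes by the rule had a median of 817 genes and the keratin-high ones among them 4558. The part of this difference in the change was not tested. Shares over all compared genes are not given here for these settings.

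The enolase Eno3 was the member furthest below tumour. It stood at 22 CPM in keratin-low T barcodes (31 UMIs) against 161 in tumour, a ratio of 0.137 (0.0927–0.194). By tag it was 8.95 CPM in U2, 28.4 in U3, 38.8 in U4, 15.7 in D0, 11.2 in D1 and 112 in D4, so each tag was below every tumour tag, and D4 rested on 6 UMIs. Pgam1 was at 324 CPM against 1388 (0.233; 0.212–0.256) and Pgk1 at 455 against 1352 (0.337; 0.311–0.364). By tag Pgam1 ran from 232 CPM in U3 to 416 in U2, and no T tag reached the tumour range of 1306 to 1489. Idh2 was at 0.303 times tumour and the cytosolic isocitrate dehydrogenase Idh1 at 0.326, both on few UMIs (43 and 20). Slc2a1 was at 41.1 CPM (0.346; 0.262–0.447) and Hk2 at 34.0 CPM (0.353; 0.26–0.468). By the class rule the same ratios were 0.395 for Eno3, 0.502 for Pgam1, 0.523 for Slc2a1 and 0.58 for Hk2. The exception on the high side was Ogdh, the oxoglutarate dehydrogenase of the TCA cycle, at 70.1 CPM against 43.8 (1.6; 1.3–1.95), higher in 5 of 6 tags. Tag D4 was the lower one, on 2 UMIs, and by the class rule the ratio was 1.41. Pdhb (1.33), Taldo1 (1.27), Pfkp (1.24) and Mdh1 (1.19) were above tumour within the 1.5-fold limit.

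NK barcodes showed the lowest glycolysis level of the 4 classes. The sum was 3483 CPM in the 113 keratin-low NK barcodes, 0.351 times tumour (0.334–0.37), and 5635 CPM by the class rule. By the rule 15 of 29 members were lower (background 29.3%) and 1 was higher (background 19.9%). In keratin-low barcodes 18 of 28 were lower (background 34.3%) and 1 was higher (background 26.6%), and 13 of the 15 glycolysis members were among the lower. With barcodes of more than 1 tag kept, 3 members were lower by the class rule, a setting for which no background share is given here. Slc2a1 (9.34 CPM, 4 UMIs) and Hk2 (9.34 CPM, 4 UMIs) were at 0.0786 and 0.0968 times tumour. By the class rule they were at 66.1 and 26.8 CPM, ratios of 0.556 and 0.277, so their size rested on the keratin-high barcodes. Pkm was at 378 CPM against 1525 (0.248; 0.211–0.289), with 277 CPM in tag U2, 517 in D0 and 395 in D1, the 3 tags with at least 20 NK barcodes. Idh1 had 0 UMIs, where a count of 0 allows up to 7.01 CPM, against 43.5 CPM in tumour. The TCA sum was 698 CPM, 0.838 times tumour (0.746–0.939). Ogdh was the higher member at 72.4 CPM (1.65; 1.12–2.35), with 117 CPM in U2, 67.5 in D0 and 66.7 in D1. Without tag U2 its log2 ratio by the class rule was 0.52 against 0.72 with it, and no member was then higher. Mdh1, the cytosolic malate dehydrogenase, stood at 227 CPM (1.49; 1.2–1.81), with 255, 225 and 228 CPM in U2, D0 and D1.

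Macrophage barcodes had a higher summed level of the pentose phosphate members than tumour, which rested on Taldo1 and Pgd. The sum was 679 CPM against 472 in tumour, a ratio of 1.44 (1.35–1.53) in keratin-low barcodes, and it was higher in 4 of 4 tags. Tkt was near tumour, at 244 against 233 CPM in keratin-low barcodes. The keratin-low interval of G6pdx, 19.6–36.3 CPM, took in its tumour level of 27.3. By the class rule the ratios of Tkt and G6pdx were 1.04 and 0.914. Glycolysis was lower at 7285 CPM (0.735; 0.722–0.748) and the TCA sum at 565 CPM (0.678; 0.635–0.724), each in 4 of 4 tags. By the class rule 2 of 29 members were higher (background 18.4%) and 3 lower (background 22.6%), both shares below the background. In keratin-low barcodes 3 of 30 were higher (background 25.2%) and 10 lower (background 30.9%).

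Transaldolase, Taldo1, stood at 269 CPM in keratin-low macrophage barcodes against 131 in tumour (2.06; 1.87–2.27). By tag it was 270 CPM in U2, 297 in U4, 304 in D0 and 254 in D1, all above the tumour range of 120 to 142. Pgd, the dehydrogenase that releases CO2 in the oxidative branch, was at 138 CPM (1.71; 1.49–1.95), with 122, 167, 117 and 152 CPM in the same tags against 74.8 to 85.1 in tumour. By the class rule these ratios were 1.65 and 1.55. Aldoc was at 44.2 CPM against 7.2 (6.14; 4.77–7.8), from 37.3 to 71.4 CPM by tag, all above the tumour range of 6.14 to 11.2. Aldoc passed the mean of 20 CPM only through its macrophage level. By the class rule it stood at 31.9 CPM and was not compared, so it counts as higher in keratin-low barcodes only. Slc2a1 stood at 164 CPM (1.38; 1.22–1.56) and Hk2 at 111 CPM (1.15; 0.984–1.33), near the tumour level and above T and NK. On the low side were Eno3 at 12.3 CPM (0.0764; 0.0466–0.118), the isocitrate dehydrogenase subunit Idh3a at 24.6 (0.386), Hk1 at 43.0 (0.462), Idh2 at 48.5 (0.483) and Pgk1 at 687 (0.508). Set against keratin-low T barcodes, macrophage barcodes had more Pgd (4.15-fold), Slc2a1 (3.99-fold), Hk2 (3.25-fold), Idh1 (2.95-fold) and Pgam1 (2.79-fold). Other members were lower in macrophage than in T barcodes. Idh3a was at 24.6 against 45.3 CPM, Pdhb at 37.5 against 65.2 and Hk1 at 43.0 against 65.9. Mdh1 was at 109 against 182 CPM and Mdh2 at 124 against 196. Neither list is complete, and no background share is given here for this comparison.

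**Figure D2:**
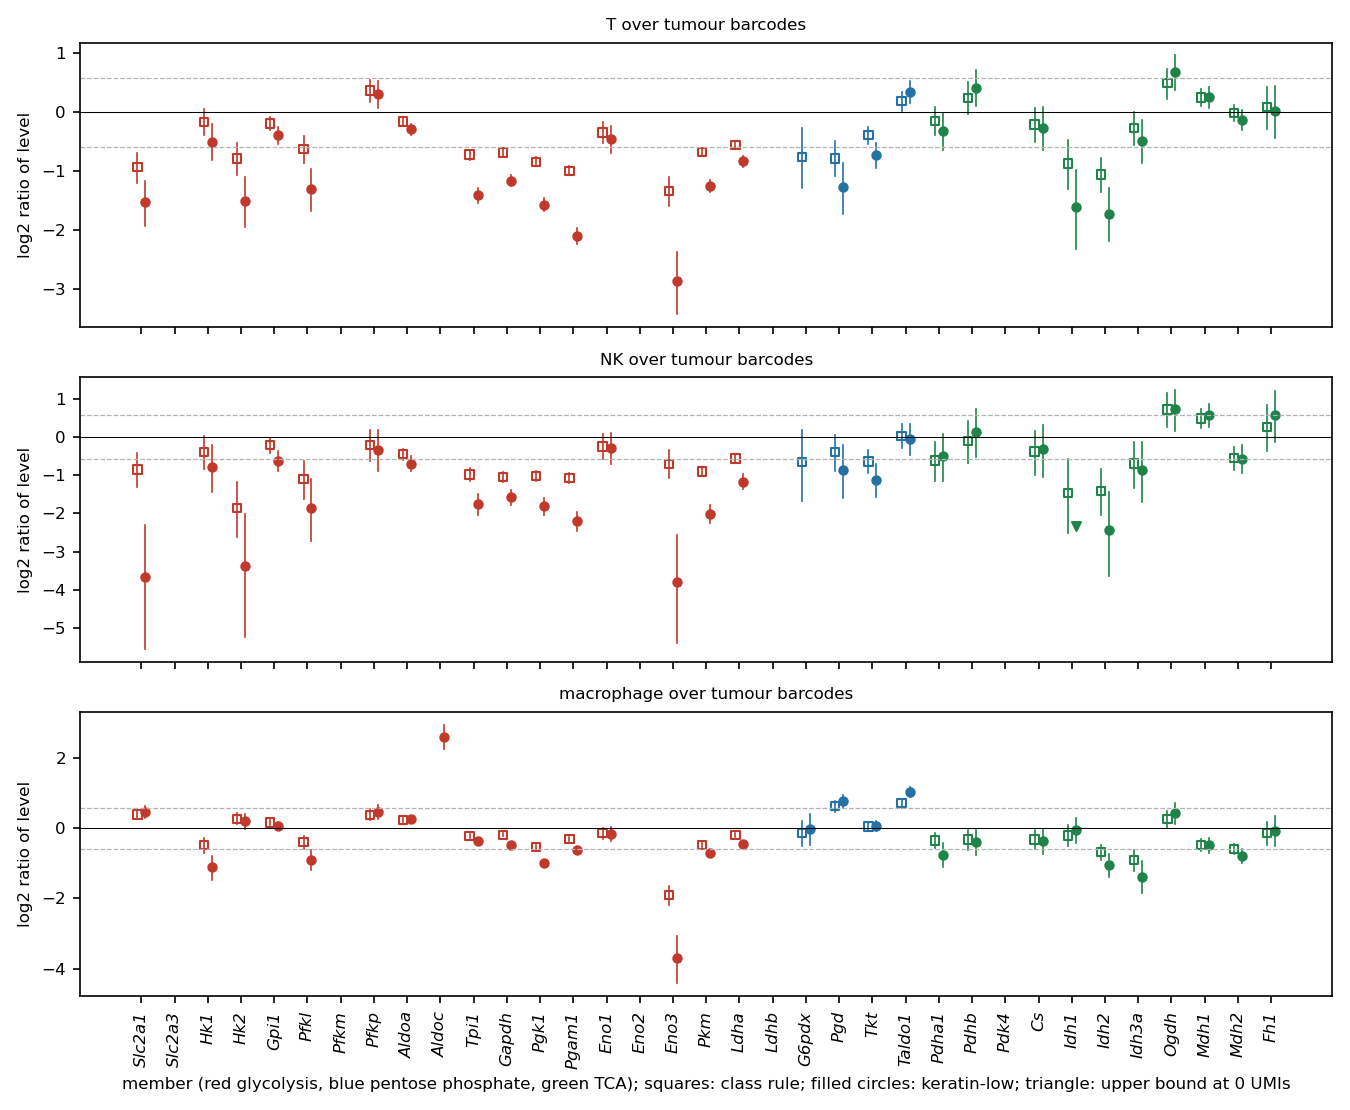
Log2 ratio of each compared member in T, NK and macrophage barcodes over tumour barcodes, with 95% counting intervals; squares are the class rule, filled circles the keratin-low barcodes, the triangle the upper bound of a member at 0 UMIs, and dashed lines 1.5-fold. Glycolysis members of T and NK barcodes lay further below tumour without the keratin-high barcodes, and Taldo1 and Pgd lay above tumour in macrophages both ways.

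Of the other genes of these routes, 67 of 68 listed were found in the matrix. In keratin-low T barcodes 8 of 38 compared were higher than in tumour (background 28.5%) and 14 lower (background 31.6%). In NK barcodes 4 of 36 were higher (background 26.6%) and 10 lower (background 34.3%), and in macrophage barcodes 8 of 37 (background 25.2%) and 9 (background 30.9%). Other than the lower genes of T barcodes, whose share was a little above the background, these shares were below it. The lactate exporter Slc16a3 (MCT4) was at 0.251 CPM in tumour, 48.9 in T and 173 in macrophage barcodes. Slc16a1 (MCT1), which carries lactate either way, was at 36.6 CPM in tumour, 11.3 in T, 9.34 in NK and 11.1 in macrophage barcodes. Txnip, which limits glucose uptake, was 25.7-fold higher in T, 23.4-fold in NK and 13.0-fold in macrophage barcodes. Pfkfb3, whose product makes an activator of phosphofructokinase, was at 52.2 CPM in macrophage barcodes against 1.45 in tumour. The cytosolic malic enzyme Me1 was at 0.12 times tumour in T and 0.104 times in macrophage barcodes and had 0 UMIs in NK barcodes, whereas the mitochondrial Me2 was 3.7-fold higher in T and 3.71-fold in NK. Rpia, ribose 5-phosphate isomerase, was 3.02-fold higher in T and 3.32-fold in NK barcodes. Slc16a3, Txnip, Pfkfb3, Me2 and Rpia were each under 20 CPM in tumour barcodes. They therefore passed the mean of 20 CPM only through the immune class in which they were higher. Got1, the cytosolic aspartate aminotransferase, was 4.49-fold higher in macrophage barcodes and at 0.419 times tumour in NK barcodes. Hif1a, which encodes the oxygen-regulated subunit of HIF-1, was 2.33-fold higher in T barcodes. Bpgm, which makes the regulator 2,3-bisphosphoglycerate, was at 0.447 times tumour in T, 0.108 in NK and 0.123 in macrophage barcodes, and Pck2, the mitochondrial phosphoenolpyruvate carboxykinase, at 0.355, 0.206 and 0.434 times. Of the succinyl-CoA ligase subunits of the TCA cycle, Sucla2 was at 0.446 times in T and 0.421 in macrophage barcodes, Suclg2 at 0.332 and Suclg1 at 0.494 in macrophage barcodes. The oxygen sensor gene Egln3 was at 0.245 times tumour in T and 0.0448 in NK barcodes, Egln1 at 0.318 and Pdk1 at 0.39 in NK, and Myc at 0.468 in macrophage barcodes.

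The isoenzyme genes used at a step differed between classes. Shares are of the UMIs of the step's listed members, in keratin-low immune barcodes, with exact Clopper-Pearson 95% intervals. For glucose transport Slc2a3 (GLUT3) made up 0.0843% of the tumour UMIs of Slc2a1 and Slc2a3, 42% in T (32.2–52.3%, 100 UMIs), 77.8% in NK (52.4–93.6%, 18 UMIs) and 0% of 267 UMIs in macrophages, which allows up to 1.12%. Slc2a3 itself stood at 29.8 CPM in T and 32.7 in NK barcodes. It was found in 6 of 6 T tags, from 15.5 CPM in U3 and U4 to 94.5 in D0.

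For hexokinase, Hk1 held 49.1% in tumour, 66.0% in T (57.5–73.7%), 85.2% in NK (66.3–95.8%, 27 UMIs) and 28.0% in macrophages (22.5–34.0%). The 3 macrophage tags with enough UMIs lay between 25.8% and 30.4% and tumour tags between 45.7% and 61.0%, with no overlap. A further hexokinase gene outside the list, Hk3, is not in these shares: it had 56 UMIs (34.4 CPM) in macrophage, 5 UMIs (11.7 CPM) in NK and 0 in T barcodes, against 0.0502 CPM in tumour. For phosphofructokinase, Pfkl was the larger share in tumour (51.8%), and Pfkp in T (67.9%; 61.6–73.9%), NK (68.9%; 53.4–81.8%) and macrophages (65.5%; 59.9–70.8%). Pfkp made up 40.0% in tumour, between 35.1% and 42.4% by tag.

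Eno3, known as the enolase of muscle, held 51.1% of the enolase UMIs in tumour (47.5–55.3% by tag), 16.6% in T (11.6–22.7%), 8.62% in NK (2.86–19.0%, 58 UMIs) and 8.26% in macrophages (5.12–12.5%). Eno1, the enolase of most tissues, held most of the rest. The 3′ end of Eno1 is largely shared: 68.8% of the 90-base words in its last 400 bases also occur in another gene, chiefly Eno1b, which had 2.1 CPM in tumour. For Gapdh the share was 73.3%, and for the other 33 members it was 0. The sources used here do not say how reads that fit more than 1 gene were counted, so the Eno1 and Gapdh levels and the enolase shares are uncertain, while the words of Eno3 were not found in another gene.

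Aldoc was a small share of aldolase throughout, 0.899% in tumour and 3.16% in T, 4.11% in NK and 4.43% in macrophage barcodes. Ldhb was 0.0272% of lactate dehydrogenase in tumour, 1.88% in T (1.12–2.96%), 2.32% in macrophages (1.61–3.23%) and 0 of 226 UMIs in NK, which allows up to 1.33%. The cytosolic Mdh1 held 41.6% of malate dehydrogenase in tumour, 48.2% in T, 61.0% in NK (53.0–68.6%) and 46.7% in macrophages. Among isocitrate dehydrogenases, Idh3a of the NAD-linked enzyme took 30.6% in tumour, 50.4% in T (41.4–59.4%), 65.2% in NK (42.7–83.6%, 23 UMIs) and 21.4% in macrophages (15.7–28.0%). Idh1 took 36.4% in macrophages (29.5–43.7%) and 20.9% in tumour.

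**Figure D3:**
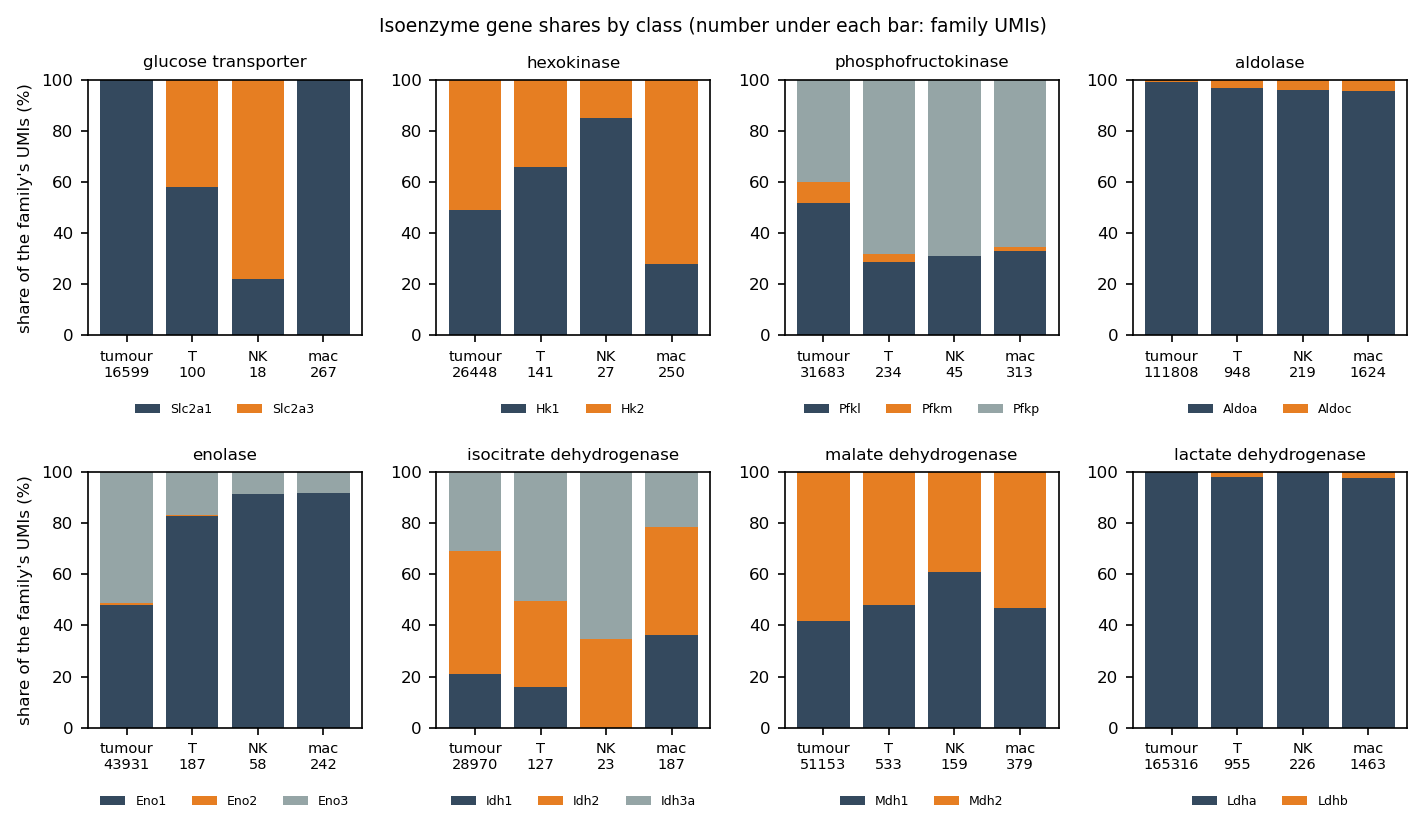
Share of the UMIs of a step's listed members (y axis, %) held by each isoenzyme gene in tumour, T, NK and macrophage (mac) barcodes, with the number of those UMIs under each bar; immune barcodes are keratin-low. Slc2a3 is visible in T and NK only, and Eno3 holds 51.1% of the enolase UMIs in tumour and at most 16.6% in the immune classes. The enolase shares are uncertain because the 3′ end of Eno1 is largely shared with another gene.

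Tumour barcodes were divided by hypoxia marker RNA, the sum of Car9 (carbonic anhydrase 9) and Ndrg1, both known to be induced by low oxygen. Each of 5109 tumour barcodes was thinned to 5000 UMIs, and 103 shallower ones were left out. Barcodes with 0 marker UMIs were called hypoxia-low (1460), those with 1 to 3 middle (2639) and those with 4 or more hypoxia-high (1010). Just inside and outside the upper limit, 340 barcodes had 4 and 551 had 3. Genes that the rule did not use differed too: Vegfa, the angiogenic ligand, was at 175 CPM in hypoxia-low and 448 in hypoxia-high barcodes, and the mitophagy gene Bnip3 at 111 and 430. Median depth was 26096 and 23361.5 UMIs, and 23.6% of hypoxia-low and 17.7% of hypoxia-high barcodes were cycling as defined below.

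Transport and glycolysis genes were higher in hypoxia-high tumour barcodes, and TCA genes were slightly lower. Of 29 compared members 10 were higher (background 4.31%) and 2 lower (background 3.37%), and all 10 were glycolysis members, of 15 compared. The glycolysis sum was 8179 CPM in hypoxia-low, 9880 in middle and 12806 in hypoxia-high barcodes, a ratio of 1.57 (1.56–1.57) and from 1.33 to 1.92 over the 6 tags. The TCA sum was 901, 828 and 738 CPM, a ratio of 0.819 (0.805–0.834), below 1 in 6 of 6 tags. The pentose phosphate sum was nearly level at 0.943 (0.921–0.965). The middle group lay between the outer groups for 15 of 15 glycolysis members and for 27 of 29 members, the exceptions being Pgd and Pdhb. This order was counted for the members only, so no share over all compared genes stands beside it. The median log2 ratio was 0.684 for the glycolysis members and −0.0425 for all compared genes. With Car9 alone as the marker 6 members were higher and 0 lower, with Ndrg1 alone 5 and 1, and with thinning to 2000 UMIs 6 and 0. Shares over all compared genes are not given here for these settings, so the changed counts cannot be set against a background.

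Slc2a1, the transporter GLUT1, showed the largest ratio among the members. It stood in hypoxia-low barcodes at 64.6 CPM in tag U2, 51.1 in U3, 51.7 in U4, 79.1 in D0, 62.8 in D1 and 56.2 in D4. In hypoxia-high barcodes it stood at 189, 360, 225, 248, 205 and 244 CPM in the same order. The groups did not overlap, and the pooled ratio was 3.57 (3.41–3.74; 234 against 65.6 CPM). The tags U3, U4, D0 and D4 had only 22 to 39 hypoxia-high barcodes each. Hk2, which phosphorylates the imported glucose, was at 90.3, 58.0, 41.9, 64.2, 78.7 and 62.4 CPM in hypoxia-low and at 126, 103, 110, 188, 116 and 149 in hypoxia-high barcodes, again without overlap (1.80; 1.71–1.9). Hk1 was 1.66-fold higher, and its share of hexokinase was 52.3% and 50.2%.

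The next steps followed the same direction. Gpi1, the isomerase, was at 286, 293, 261, 308, 281 and 303 CPM in the hypoxia-low barcodes of U2, U3, U4, D0, D1 and D4, and at 569, 957, 732, 615, 571 and 606 in the hypoxia-high ones (2.19; 2.13–2.24). Pfkp was at 69.3, 58.0, 50.9, 87.7, 60.8 and 62.4 CPM in hypoxia-low and at 147, 190, 154, 157, 132 and 139 in hypoxia-high barcodes (2.37; 2.26–2.5). Neither gene had overlapping groups. Pfkl, the other main phosphofructokinase, was 1.52-fold higher (1.45–1.59), and Pfkp took 34.3% of the phosphofructokinase UMIs in hypoxia-low and 46.3% in hypoxia-high barcodes. By tag that share ran from 29.5% to 41.1% and from 42.5% to 47.9%.

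In the lower part of the pathway Gapdh was 1.81-fold higher (1.79–1.83), Pgk1 1.78-fold (1.75–1.8), Aldoa 1.61-fold and Pgam1 1.54-fold, each in 6 of 6 tags. Pgk1 was at 980, 1082, 966, 1186, 1147 and 1179 CPM by tag in hypoxia-low and at 1734, 2387, 1930, 1845, 1836 and 1498 in hypoxia-high barcodes. Those ranges did not overlap. Eno1 (1.45), Ldha (1.43), Tpi1 (1.41) and Pkm (1.28) were above 1 in 6 of 6 tags without reaching 1.5-fold.

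Eno3 was the glycolysis member that went the other way. It was at 165, 318, 237, 213, 210 and 190 CPM in hypoxia-low and at 111, 71.5, 149, 128, 145 and 93.2 in hypoxia-high barcodes, in the tag order given above. The ranges did not overlap and the pooled ratio was 0.58 (0.556–0.605). Its share of enolase was 59.8% in hypoxia-low and 37.2% in hypoxia-high barcodes, values that are uncertain because the 3′ end of Eno1 is largely shared. In the TCA cycle Fh1, which hydrates fumarate, was lower at 32.4, 44.8, 49.7, 48.5, 41.1 and 38.9 CPM against 22.8, 22.4, 22.7, 18.4, 25 and 22.6, without overlap (0.596; 0.541–0.656). Idh3a (0.697), Mdh1 (0.787), Mdh2 (0.8), Ogdh (0.867) and Idh2 (0.871) were below 1 in 6 of 6 tags within the 1.5-fold limit, as was G6pdx (0.733), the entry enzyme of the pentose phosphate pathway.

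**Figure D4:**
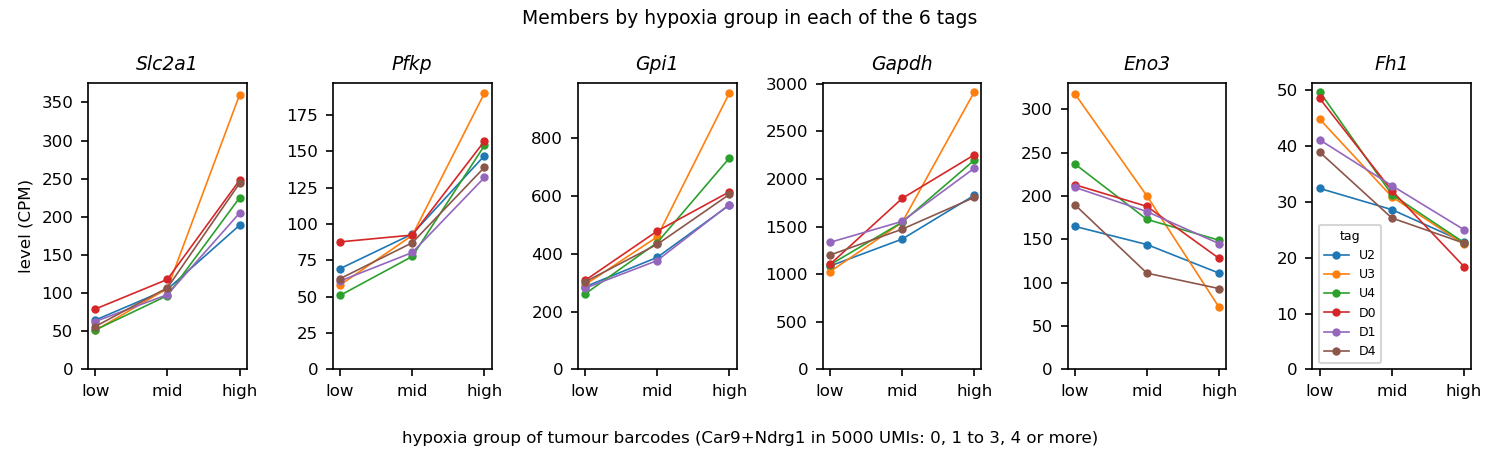
Level (CPM) of 6 members in tumour barcodes of low, middle and high hypoxia marker RNA, with 1 line for each of the 6 tags. Slc2a1, Pfkp, Gpi1 and Gapdh were higher and Eno3 and Fh1 lower from low to high in every tag shown, and tag U3 had the highest Slc2a1 at 360 CPM from 22 barcodes.

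The split was repeated within cycle states. Among non-cycling barcodes the glycolysis ratio was 1.63 and the TCA ratio 0.857, and among cycling barcodes 1.38 and 0.787. Slc2a1 was 3.54-fold and 3.22-fold higher, and Fh1 was at 0.494 among cycling barcodes. Of the other genes of these routes, 3 of 32 compared were higher in hypoxia-high barcodes (background 4.31%) and 0 lower (background 3.37%). These were the oxygen sensors Egln1 (274 against 85.6 CPM, 3.2-fold) and Egln3 (2.08-fold) and Pdk1 (2.09-fold), a kinase that switches off pyruvate dehydrogenase. Egln3 was also on the list used to check the split.

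**Figure D5:**
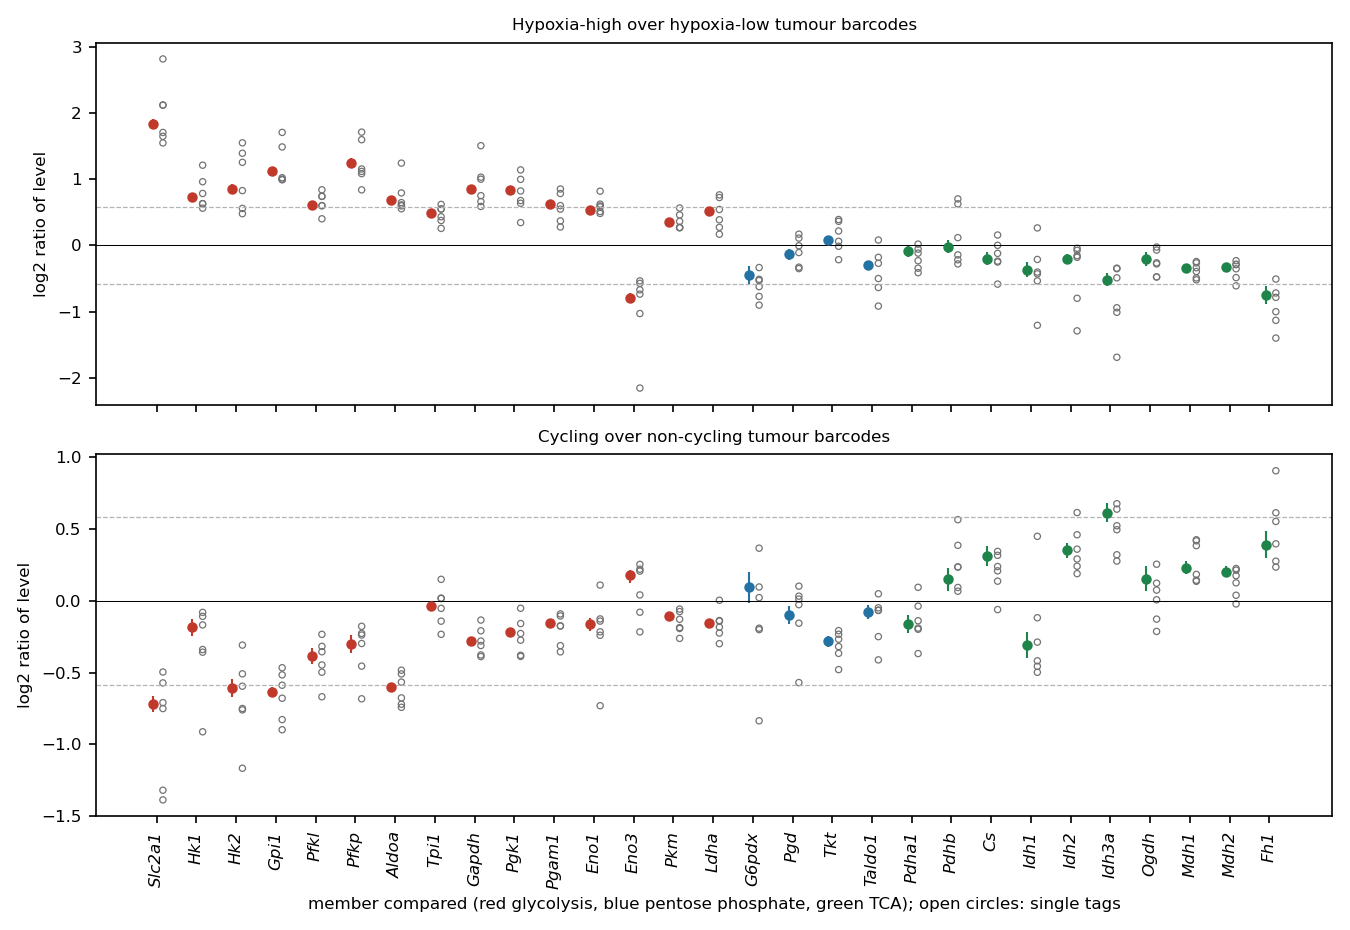
Log2 ratio of the compared members between hypoxia-high and hypoxia-low tumour barcodes (upper) and between cycling and non-cycling tumour barcodes (lower), with 95% counting intervals on the filled points, open circles for the 6 tags and dashed lines at 1.5-fold. Glycolysis members other than Eno3 lay above 0 in the upper panel, with Slc2a1 at 1.84, and TCA members other than Pdha1 and Idh1 lay above 0 in the lower panel, with Idh3a at 0.61.

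Cycling was read from Mki67 and Top2a, genes of proliferating cells, in the same thinned counts. There were 1042 cycling barcodes (2 or more UMIs), 474 with 1 UMI and 3593 non-cycling (0 UMIs), and 213 barcodes had exactly 2. The cell-cycle genes of the check list summed to 108 CPM in non-cycling and 1848 in cycling barcodes. Median depth was 23481 and 34693.5 UMIs. Cycling barcodes had somewhat less glycolysis and more TCA RNA. The glycolysis ratio was 0.855 (0.852–0.859), below 1 in 6 of 6 tags, and the TCA ratio 1.16 (1.14–1.17), above 1 in 6 of 6. Of 29 compared members 1 was higher (background 10.5%) and 4 were lower (background 3.44%). With thinning to 2000 UMIs these counts were 0 and 1, and with barcodes of more than 1 tag kept 0 and 2. Background shares are not given here for these settings.

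The higher member was Idh3a, the catalytic subunit of NAD-linked isocitrate dehydrogenase (chr9:54586334-54604661, +). It was at 53.4, 48.4, 56.8, 54.7, 58.4 and 49.2 CPM in the non-cycling barcodes of U2, U3, U4, D0, D1 and D4, and at 76.7, 68.2, 88.4, 68.3, 93.3 and 59.6 in the cycling ones. The groups did not overlap, but only by a small margin. The lowest cycling tag, D4, rested on 44 UMIs, and its interval of 43.3–80.0 CPM takes in the highest non-cycling tag. The pooled ratio was 1.53 (1.46–1.6), an interval that reaches below the 1.5-fold limit. Without tag D1 it fell short of that limit. Fh1 (1.31), Idh2 (1.28), Cs (1.24) and Mdh1 (1.17) were above 1 as well. Idh1, the cytosolic NADP-linked enzyme, was at 0.807, and its share of the 3 isocitrate dehydrogenase genes was 23.7% in non-cycling and 15.5% in cycling barcodes.

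The lower members were Slc2a1 (0.608; 0.585–0.633), Gpi1 (0.645), Hk2 (0.657) and Aldoa (0.658), each in 6 of 6 tags. Slc2a1 was at 121, 137, 106, 155, 123 and 142 CPM by tag in non-cycling and at 81.4, 52.4, 63.0, 94.8, 87.2 and 56.9 in cycling barcodes, without overlap. The same barcodes entered the hypoxia split, where these 4 had ratios of 3.57, 2.19, 1.80 and 1.61. Within hypoxia-low barcodes alone the glycolysis ratio was 0.955 and 2 members were lower, while the TCA ratio was 1.17. Within hypoxia-high barcodes alone these ratios were 0.808 and 1.07, with 3 members lower. No background share is given here for the member counts within hypoxia-low or hypoxia-high barcodes. Eno3 was at 1.13 and held 48.8% of enolase in non-cycling and 54.8% in cycling barcodes, shares that are uncertain for the same reason as above. Of the 32 other genes compared, Bpgm (0.567) was lower (background 3.44%) and 0 were higher (background 10.5%). Me2 (26.2 against 10.4 CPM, 2.53-fold) and Prps1 (24.7 against 10.6 CPM, 2.33-fold), each higher in 6 of 6 tags, were not compared because their mean level was under 20 CPM.

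Macrophage barcodes with at least 2 Arg1 UMIs (arginase 1) were set against those with none, 233 against 91 keratin-low barcodes. Of 30 members 2 were higher (background 9.92%) and 2 lower (background 15.5%), and by the class rule 0 were higher (background 6.48%) and 1 lower (background 10.5%). Aldoa was at 1087 CPM in Arg1-high and 643 in Arg1-0 barcodes (1.69; 1.46–1.96) and Slc2a1 at 187 and 112 (1.67; 1.18–2.43). Pdhb (0.545; 0.303–1.01) and Idh3a (0.591; 0.284–1.3) were lower, with intervals that include 1. The glycolysis ratio was 1.32 (1.26–1.39) in keratin-low barcodes and 1.09 by the class rule. In D1, the tag with at least 20 barcodes of both, it was 1.1 in keratin-low barcodes.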

How the data were processed

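The authors deposited a matrix of UMI counts per gene and antibody tag for 9747 barcodes, made with Cell Ranger on mm10, per the submitters' processing notes. The sources used here do not name the annotation. The file header names software 3.1.0.

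Tags were assigned with HTODemux (Seurat 5.3.0, R 4.3.3, positive quantile 0.99, seed 42) and barcodes with more than 1 tag removed. Classes follow the rules given above. Sums, CPM, ratios (exact conditional binomial intervals) and shares (Clopper-Pearson) were computed in Python 3.11.15 with numpy 2.4.6, scipy 1.17.1 and pandas 2.3.3, and figures with matplotlib 3.10.9; the code was tested on simulated data. Thinning to 5000 UMIs used seed 7, and member levels came from unthinned counts. Tags entered a comparison with at least 20 barcodes in both groups. A count of 0 is read as allowing up to 3 UMIs. Positions are from GENCODE M21 (GRCm38), promoters from RefSeq.

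All 35 members are reported; values per tag are given for abundant members of each step and for members with the largest ratios, and other compared route genes are named at 2-fold or more where reported. Bpgm in cycling barcodes, Me2 and Prps1 there, and Hk3 fall outside that rule and were named after their values were seen. Members, lists and groupings were chosen with earlier results of these data known. Alternatives covered filters, scaling, thresholds, free RNA, keratin-high barcodes and leaving out each tag. A planned division of the T barcodes and a result among the other route genes are not reported here.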

Additional observations from a re-analysis of the deposited data

Results flagged for a closer look

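Within each class the tags were examined for a single tag far from the rest, for members with enough UMIs to be compared: 29 in tumour, 29 in keratin-low T and 30 in keratin-low macrophage barcodes. Chance alone marks about 1 in 20 such sets of values, and 5 were marked. Pdhb in tumour barcodes stood at 57.9 CPM in tag U4, with the nearest tag at 49.7 and the lowest at 45.1. Aldoa in keratin-low T barcodes stood at 325 CPM in tag U3, with the other tags from 722 to 929. The fibroblast markers summed to 3077 CPM in the same U3 barcodes, 2031 in U4 and 74.4 to 244 in the other 4 tags, and their part in the result was not tested. In U3 8 of 210 barcodes held 3 or more of these UMIs. Eno3 in keratin-low T barcodes stood at 112 CPM in tag D4 on 6 UMIs, with the nearest tag at 38.8. Tkt in keratin-low macrophage barcodes stood at 404 CPM in tag U4, which held 21 such barcodes, with the nearest tag at 248. Idh3a in keratin-low macrophage barcodes stood at 37.3 CPM in tag D0 on 7 UMIs, with the other 3 tags from 22.5 to 25.1.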

How the results depend on the processing

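Of 190 recomputed counts of members past 1.5-fold, 142 stayed within 1.5 times the reported count and 48 did not. Of 959 recomputed member ratios 849 kept direction and fold, 109 moved inside the fold and 1 reversed. The reversed ratio was G6pdx in NK (log2 ratio −0.66, and from −0.78 without tag U4 to 0.05 without tag D1). In 6 cases a level was at 0 after subtraction, and these are not a separate part of the 959. The cause of the changed counts and ratios was not tested unless the setting itself gives it. For most of these settings no share over all compared genes is given, so a changed count alone does not separate the members from other genes. T over tumour, higher (0 reported): 1 without ribosomal and mitochondrial genes, 1 by mean of barcode shares, 3 without the level filter, 2 with free RNA subtracted, 1 with Areg left out of the free-RNA list, 1 keratin-low; lower (13): 3 with at least 1000 genes, 3 with tag doublets kept. NK, higher (1): 2 without ribosomal and mitochondrial genes, 2 divided by the median ratio, 2 by barcode shares, 3 without the filter, 2 with free RNA subtracted, also 2 without Areg; leaving out each tag gave 0 (U2) to 1; lower (15): 3 with doublets kept. Macrophage, higher (2): 1 with doublets kept, 4 by barcode shares, 4 without the filter, 4 with free RNA subtracted, also 4 without Areg, and 2 to 4 leaving out each tag (4 without D1); lower (3): 9 by barcode shares, 6 without the filter, 10 with free RNA subtracted, 10 without Areg, 10 keratin-low, and 3 to 5 leaving out each tag (5 without U2 or D1). Hypoxia-high, higher (10): 6 thinned to 2000 UMIs, 6 by Car9 alone, 5 by Ndrg1 alone; lower (2): 0 thinned to 2000, 7 at 8 or more marker UMIs, 0 by Car9 alone, 1 by Ndrg1 alone, 1 among non-cycling barcodes. Cycling, higher (1): 0 with doublets kept, with stricter class thresholds, divided by the median ratio, thinned to 2000, in hypoxia-low only and in hypoxia-high only, and 0 (without D1) to 1 leaving out each tag; lower (4): 2 with doublets kept, 2 in tagged barcodes only, 1 thinned to 2000, 2 in hypoxia-low only. The median of all compared genes lay at log2 −0.08 (T), −0.15 (NK), −0.14 (macrophage), −0.04 (hypoxia) and 0.09 (cycling). The keratin-low barcodes and the free-RNA list without Areg were chosen after seeing the data. Immune classes hold far fewer UMIs than tumour, which limits Slc2a3, Ldhb, Idh1 and Eno3. Fits with the tag as a block were not made.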
